A study of Homo sapiens with 9 samples.

Results

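Short hairpin knockdown of AHR with the construct labelled shAHR#2 was compared with the control vector pLKO-GFP in MDA-MB-231 cells, an established human triple-negative breast cancer line. The libraries were chosen by their deposited genotype labels (shAHR#2, and GFP-PLKO for the control), which gave 6 of the 9 RNA sequencing libraries of the series, 3 in each group. The other 3 libraries carried shAHR#3 and were left out. Of 60649 genes listed, 13861 had enough counts in these 6 libraries to be tested, and 35685 had no count in any of them.

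Both groups were labelled as mammary epithelial cells in proliferation, grown in DMEM with serum and an antibiotic-antimycotic, and no drug or AhR ligand was named. In the methods of the study, lentivirus-infected cells that survived puromycin selection were aggregated, so each group was a pool of resistant cells and not a clone. The control cells carried the same kind of vector with GFP. The study's methods number the AHR hairpins differently from the deposited labels, and which target sequence belongs to shAHR#2 is not settled here. Nothing in the labels says that the 3 libraries of a group came from separate cultures, so p-values measure only the spread between these libraries, which may be technical.

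AhR, the protein encoded by AHR, is a transcription factor that waits in the cytoplasm with chaperones until a ligand binds it. It then enters the nucleus, pairs with ARNT and binds DNA elements whose core reads GCGTG, near genes for enzymes that oxidize or conjugate foreign compounds, such as CYP1A1 and CYP1B1. In breast cells it is also known for effects on growth factor ligands, adhesion, invasion and inflammatory genes.

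Library depth was similar, with total counts of 17407688, 19509030 and 19370185 in the control libraries and 19112459, 15991396 and 16187573 in the shAHR#2 libraries. Values are given as CPM, counts scaled to library size with TMM factors, and a gene was called higher or lower when its adjusted p in edgeR's quasi-likelihood test was under 0.05. AHR (ENSG identifier ENSG00000106546.14; chromosome 7, 16916359 to 17346152 of GRCh38) was counted at 114, 118 and 121 CPM in control replicates 1 to 3 and at 42.5, 40.3 and 42 CPM in the shAHR#2 libraries. The groups did not overlap, as was the case for 69.4% of all tested genes. Of the control mean, 35.5% remained (log2 fold change -1.49, standard error 0.04, edgeR adjusted p = 3.18e-30). In a bulk sample, fewer cells that express a gene and less of its RNA per cell cannot be told apart, so a pool with some poorly silenced cells would give the same AHR value as an even reduction.

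CYP1B1, a P450 enzyme whose gene is a classical AhR target, fell from 168, 172 and 165 CPM to 26.4, 28.2 and 26.3 CPM. CXCL8, which encodes the neutrophil attractant interleukin-8, rose from 9.75, 9.38 and 8.96 CPM to 49.6, 51.2 and 45.1 CPM. BST2, an interferon-inducible membrane protein that tethers virus particles, fell from 36.2, 33.8 and 32.4 CPM to 4.24, 3.4 and 2.98 CPM. These marker genes each separated every shAHR#2 library from every control library, as did 69.4% of all tested genes. Their log2 fold changes were -2.64, 2.38 and -3.25. The line's identity was looked at with 12 genes typical of MDA-MB-231 or of mesenchymal-like breast cancer cells. Their summed level was 8707, 8822 and 8684 CPM in the control and 10904, 11051 and 10854 CPM with shAHR#2, with VIM (vimentin) the most abundant. SPARC, a matrix protein of mesenchymal cells, was the lowest at 1.76 CPM and 1.09 CPM in the mean, and EGFR with shAHR#2, at 188 CPM, was the lowest of the other 11.

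ARNT, the partner of AhR on DNA, rose from 46.6, 48.5 and 44.8 CPM to 57.9, 59.3 and 59.5 CPM, while its relative ARNT2 fell from 39.7, 38.5 and 36.5 CPM to 20, 18.5 and 17.3 CPM. The chaperone component PTGES3 (p23) rose by 0.48 on the log2 scale. Of 7 tested members of the complex, 5 were higher and 2 lower. For comparison, 67.7% of all tested genes were called, 33.9% as higher and 33.8% as lower.

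Among 18 tested AhR target genes, 9 were higher (50%) and 7 lower (38.9%), against 33.9% and 33.8% of all tested genes. The median log2 fold change of the targets was 0.35 against 0.00 for all tested genes. CYP1A1, the P450 most often used as a readout of AhR activity, had 71, 97 and 90 reads in the control libraries and 10, 11 and 19 with shAHR#2, a log2 fold change of -2.47 (standard error 0.25). NQO1, a quinone reductase, fell from 296, 300.2 and 305 CPM to 116, 114 and 112 CPM. In the other direction, ALDH3A1, an aldehyde dehydrogenase induced by dioxin in many cells, rose from 3.49, 3.72 and 3.24 CPM to 28.3, 28.7 and 27.7 CPM. The EGF receptor ligand EREG (epiregulin) rose from 51.1, 56.9 and 56.4 CPM to 167, 172 and 159 CPM. TIPARP, which encodes the ADP-ribosyltransferase PARP7, was at 88.6, 94.7 and 93.3 CPM and at 97.1, 98.4 and 91 CPM. These TIPARP values overlapped between the groups, and the gene did not pass the test (edgeR adjusted p = 0.241). AHRR, the AhR repressor, had 1, 2 and 1 reads in the control libraries and 0, 0 and 2 with shAHR#2 and was not tested.

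**Figure D1:**
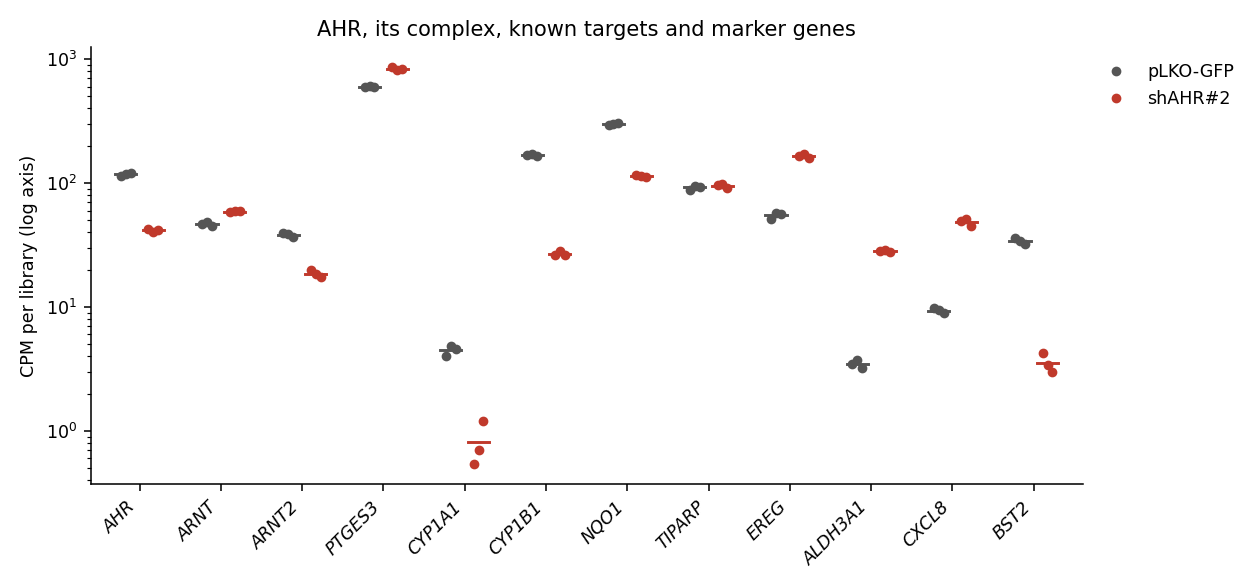
CPM per library (log axis) for AHR, genes of its complex, known targets and marker genes, with a point for each of the 3 pLKO-GFP (grey) and 3 shAHR#2 (red) libraries and a line at each mean. AHR, CYP1A1, CYP1B1, NQO1 and BST2 lie lower with shAHR#2, EREG, ALDH3A1 and CXCL8 higher, and the TIPARP points overlap.

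Promoters of target genes that fell, rose and did not pass the test are shown because the same AhR core letters occur in each. They run from 250 bases before to 50 bases after the start of transcription in RefSeq (GRCh38.p14), 5' to 3', with every GCGTG, or CACGC where it lies on the opposite strand, in capitals. CYP1A1 (chr15:74725479-74725778, minus strand) and NQO1 (chr16:69726511-69726810, minus strand) fell, EREG (chr4:74364895-74365194, plus strand) rose and TIPARP (chr3:156674340-156674639, plus strand) was not called.
CYP1A1: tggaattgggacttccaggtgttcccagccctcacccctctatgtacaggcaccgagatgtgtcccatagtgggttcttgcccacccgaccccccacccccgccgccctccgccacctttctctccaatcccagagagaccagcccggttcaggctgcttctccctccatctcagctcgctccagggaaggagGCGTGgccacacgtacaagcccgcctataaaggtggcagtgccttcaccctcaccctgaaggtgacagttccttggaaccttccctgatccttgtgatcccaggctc
NQO1: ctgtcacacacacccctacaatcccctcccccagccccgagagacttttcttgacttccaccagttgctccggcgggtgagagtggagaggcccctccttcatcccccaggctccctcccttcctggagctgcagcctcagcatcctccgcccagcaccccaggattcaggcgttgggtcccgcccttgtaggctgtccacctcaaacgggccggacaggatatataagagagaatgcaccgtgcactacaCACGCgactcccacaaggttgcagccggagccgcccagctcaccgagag
EREG: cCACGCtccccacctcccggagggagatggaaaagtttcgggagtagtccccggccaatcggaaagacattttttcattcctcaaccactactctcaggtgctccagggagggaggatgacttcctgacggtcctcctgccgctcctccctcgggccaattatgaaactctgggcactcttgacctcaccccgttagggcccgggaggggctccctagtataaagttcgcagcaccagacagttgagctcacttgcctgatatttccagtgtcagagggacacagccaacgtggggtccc
TIPARP: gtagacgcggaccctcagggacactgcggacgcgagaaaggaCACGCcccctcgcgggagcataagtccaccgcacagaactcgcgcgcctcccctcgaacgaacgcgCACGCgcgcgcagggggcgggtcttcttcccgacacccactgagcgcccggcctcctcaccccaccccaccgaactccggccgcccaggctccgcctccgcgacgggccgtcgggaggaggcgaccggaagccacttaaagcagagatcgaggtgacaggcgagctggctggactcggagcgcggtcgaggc
The first 3 promoters hold 1 match each and that of TIPARP holds 2. Of 27305 promoters of this length in the RefSeq table, 36.3% held at least 1 match on either strand. Among tested protein-coding genes with a promoter in the table the share was 51.3% (5071 of 9891). It was 43.3% of 476 genes that were higher by 2-fold or more, 46.2% of 485 that were lower by 2-fold or more, and 50.8% of 2817 that were not called. Of 16 tested AhR targets with a promoter in the table, 11 had a match. A match of these letters is a description of the sequence and not a measured binding site.

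Across the genome, 4698 genes were called higher and 4680 lower. Most changes were small, and 5251 of the 9378 called genes differed by less than 0.5 on the log2 scale. A change of 2-fold or more together with the adjusted p was met by 1575 genes, 11.4% of those tested, with 785 higher (5.66%) and 790 lower (5.7%). Of the called genes, 185 reached 3 or more on the log2 scale. Every control library differed in the same direction from every shAHR#2 library for 69.4% of the tested genes, while 67.7% were called. The first principal component separated the groups and held 83.6% of the variance, while the second held 4.77%.

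**Figure D2:**
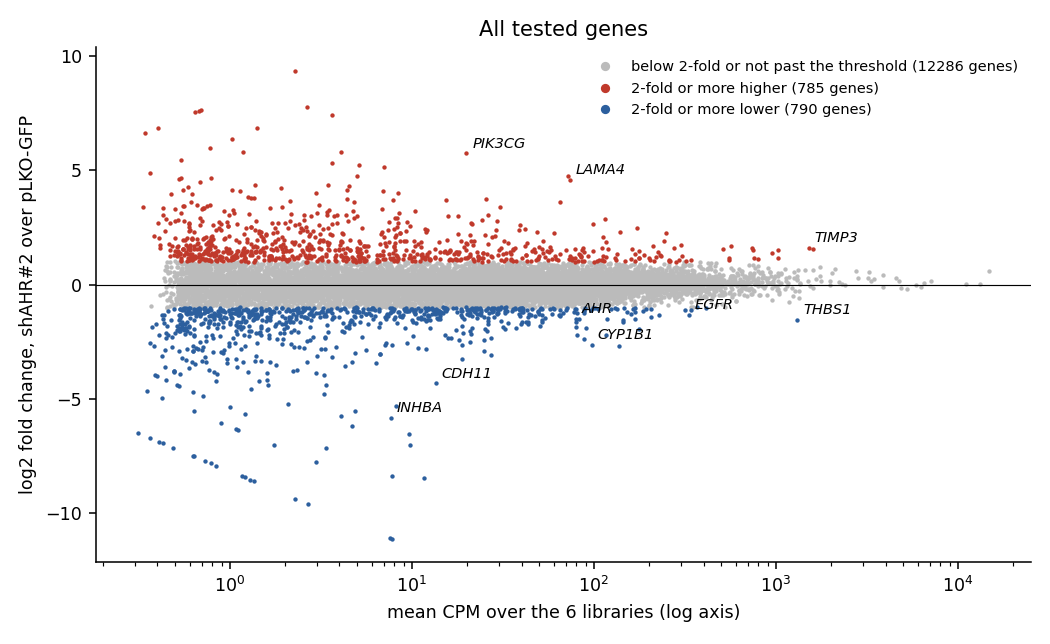
Log2 fold change of shAHR#2 over pLKO-GFP against mean CPM (log axis) for the 13861 tested genes, with 785 genes that were higher by 2-fold or more in red, 790 lower in blue and the rest in grey. Fitted values of genes with almost no reads in one of the groups, among the highest and lowest points, depend on the prior count of the fit.

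Among protein-coding genes that averaged at least 5 CPM in 1 of the groups, the 12 largest rises included cell surface and signalling genes seldom described in epithelial cells. CD96, a receptor of the immunoglobulin family best known on T and NK cells, rose from 5.24, 4.71 and 5.67 CPM to 142, 138 and 139 CPM. LAMA4, the laminin alpha 4 chain of endothelial and mesenchymal basement membranes, rose from 5.63, 6 and 6.17 CPM to 143, 140.3 and 141 CPM. PIK3CG, the catalytic subunit of the PI3-kinase of leukocytes, rose from 0.507, 0.744 and 0.911 CPM to 39.8, 41.3 and 36.3 CPM. On the log2 scale these rises were 4.74, 4.57 and 5.74. The cell cycle gene CCND2 (cyclin D2) went from 17, 23 and 17 reads to 311, 226 and 255 reads, a log2 fold change of 3.99. SPNS2, an exporter of sphingosine-1-phosphate, went from 3, 5 and 7 reads to 153, 165 and 174 reads. The formyl peptide receptor gene FPR3, SOBP, RAPGEF5, TM4SF18 and VSIG1 also belonged to this set, with log2 fold changes of 5.31, 4.29, 4.14, 4.76 and 4.09.

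Several genes went from near 0 to a clear level or the reverse. ACVRL1, a receptor for BMP9 and BMP10 known from blood vessels, had no read in the control libraries and 79, 76 and 72 reads with shAHR#2, which made it at least 87.3-fold higher when the control was set to a floor of 3 counts over its 3 libraries. FABP4, a fatty acid binding protein of adipocytes and macrophages, had 1, 0 and 1 reads in the control and 136, 115 and 110 with shAHR#2, a ratio of 208 with an exact 95% interval from 57.2 to 1726. SLC30A8, a zinc transporter of insulin granules, had 1, 0 and 0 and 95, 83 and 86 reads. In all, 17 genes had at most 3 reads over the control libraries and averaged at least 1 CPM with shAHR#2, and 28 genes showed the opposite. Such intervals and floors cover counting error only.

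The largest falls were of genes that ended near 0. PDE1C, a calmodulin-dependent phosphodiesterase, had 265, 293 and 340 reads in the control libraries and none with shAHR#2, at least 259-fold lower. CCBE1, a secreted factor for lymphatic growth, had 265, 300 and 311 reads and then none, at least 253-fold lower. TENM2, a teneurin adhesion protein, had 408, 502 and 436 reads in the control and 2, 1 and 0 with shAHR#2, and the axon guidance gene SEMA5A had 259, 302 and 339 and 0, 0 and 2. Both TENM2 and SEMA5A lie on chromosome 5, where 73% of tested genes were called lower. The pregnancy-specific glycoprotein PSG1 went from 92, 111 and 106 reads to none, although PSG genes are close copies of each other whose reads may have been split by the counting. INHBA, whose product forms activin A, fell from 13.9, 17.9 and 13.6 CPM to 0.107, 0.321 and 0.381 CPM. The ubiquitin ligase RNF144A, the phospholipase PLCB4, the sorting receptor SORCS2, the translation release factor GSPT2 and the synaptic gene RIMS2 were also among the 12 largest falls. These 5 genes had 6 or fewer reads in each shAHR#2 library except RIMS2, with 11, 6 and 3.

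Among abundant genes, ranked by CPM per kilobase of exons, the 6 highest that rose by 2-fold or more were TIMP3, ERRFI1, SLC20A1, PODXL, ARHGDIB and EMP1. TIMP3, an inhibitor of metalloproteinases held in the matrix, stood at 163 CPM per kilobase in the control and 497 with shAHR#2. ERRFI1 (MIG6), a feedback inhibitor of the EGF receptor, stood at 94 and 265 CPM per kilobase. The 6 highest that fell were ANKRD1, THBS1, PRNP, F3, IGFBP7 and KRT81. THBS1, the matrix protein thrombospondin-1, stood at 213 and 73.4 CPM per kilobase, and F3, tissue factor of blood clotting, at 150.5 and 69.3. ANKRD1, a widely used target of YAP, stood at 309 and 152.

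Of 8 tested chemokines, 5 were higher (62.5%) and 2 lower (25%). By 2-fold or more 4 were higher and 1 lower (62.5% together), against 11.4% of all tested genes. CXCL16, a chemokine made with a membrane anchor, had 3, 9 and 9 reads in the control and 28, 24 and 24 with shAHR#2, whereas CX3CL1, built the same way, had 40, 42 and 57 and 4, 12 and 4. Of 20 tested cytokines and growth factors of inflammation, 8 were higher (40%) and 5 lower (25%), against 33.9% and 33.8% of all tested genes. The interleukin-1 genes were counted low but rose, IL1A from 0, 4 and 7 reads to 32, 34 and 28 and IL1B from 11, 12 and 13 to 36, 54 and 30. In the other direction, IL24, a cytokine of the interleukin-10 family, fell from 132, 118 and 121 reads to 7, 2 and 6, and the inflammatory cytokine IL32 from 44, 48 and 43 to 1, 4 and 3. IL11, of the interleukin-6 family, fell from 31.8, 27.7 and 29.2 CPM to 11.6, 11.7 and 11.6 CPM. IL6 itself was at 4.4, 3.92 and 5.77 CPM and 4.13, 6.22 and 4.89 CPM and did not pass the test (edgeR adjusted p = 0.604).

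Of 36 cytokine receptors, 15 were higher (41.7%) and 11 lower (30.6%), against 33.9% and 33.8% of all tested genes. TNFRSF1A, the main receptor for TNF, rose from 132, 133 and 131 CPM to 307, 310.4 and 304 CPM. TNFRSF9 (4-1BB) and IL20RA rose from lower levels, by 2.10 and 1.27 on the log2 scale. The LIF receptor gene LIFR and the oncostatin M receptor gene OSMR, both on chromosome 5, fell from 122 to 61 CPM and from 224 to 142 CPM in the mean. Of 26 NF-kB subunits and inhibitors, 14 were higher (53.8%) and 6 lower (23.1%). A single gene reached 2-fold (3.85%, against 11.4% of all tested genes). This was NFKBIZ, which encodes a nuclear I-kappa-B protein, at 18.6, 18.8 and 18.9 CPM in the control and 48.1, 50 and 53.3 CPM with shAHR#2. The ubiquitin ligase gene BIRC3 rose by 0.98 and TRAF1 by 0.84 on the log2 scale.

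Of 31 tested genes of nucleic acid sensing and interferon signalling, 10 were higher (32.3%) and 12 lower (38.7%). These shares were near the 33.9% and 33.8% of all tested genes. TLR4, the receptor for bacterial lipopolysaccharide, rose from 41.3, 44.5 and 44.3 CPM to 128, 129.6 and 132 CPM. ENPP1, a hydrolase that degrades the STING ligand cGAMP, rose from 117, 125 and 119 CPM to 333, 319 and 328 CPM. STING1, the adaptor of cytosolic DNA sensing, was low, with 57, 122 and 76 reads in the control libraries and 155, 140 and 101 with shAHR#2. It rose by 0.84 on the log2 scale (standard error 0.16). The DNA sensor CGAS rose by 0.49, and the kinase TBK1, which acts below STING, fell from 61.6, 59.8 and 56.1 CPM to 38.3, 36.4 and 38.1 CPM. The signalling suppressors SOCS1 and SOCS2 fell by 1.90 and 1.38 on the log2 scale, and IRF1 fell by 0.28. IFNB1 had no read in the 6 libraries. The interferon-regulated chemokine genes CXCL10 and CCL5 had 0, 1 and 1 and 0, 0 and 0 reads in the control and 2, 0 and 0 and 1, 1 and 2 with shAHR#2, too few to be tested.

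Of 61 interferon-stimulated effectors, 33 were higher (54.1%) and 15 lower (24.6%), against 33.9% and 33.8% of all tested genes. By 2-fold or more 6 were higher and 3 lower (14.8% together), near the 11.4% of all tested genes. The median log2 fold change of the 61 was 0.29. IFI44 rose from 14.6, 13.3 and 13.6 CPM to 33.3, 29.8 and 34.7 CPM, and its neighbour IFI44L from 1.3, 1.09 and 0.961 CPM to 5.21, 4.81 and 5.33 CPM. IFIT5, an RNA-binding antiviral protein, fell from 61.6, 66.5 and 64.8 CPM to 21, 21.5 and 19.9 CPM, and HERC5, the ligase that attaches ISG15 to proteins, from 51.2, 57.1 and 52.7 CPM to 26, 26.6 and 27.5 CPM. ISG15 itself was at 12.5 CPM in the control and 12.5 CPM with shAHR#2 in the mean and did not pass the test (edgeR adjusted p = 0.955).

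Antigen presentation by class II molecules, which carry extracellular peptides, was lower in 8 of 13 tested genes (61.5%) and higher in 2 (15.4%). Over all tested genes, 33.8% were lower and 33.9% higher. CIITA, the master activator of class II genes, fell from 18.4, 16.5 and 17.2 CPM to 9.5, 8.47 and 7.24 CPM (this gene was singled out after its values were seen). HLA-DPA1 fell from 8.56, 8.09 and 8.96 CPM to 1.07, 0.385 and 0.889 CPM, and HLA-DMB, a peptide-loading subunit, from 30, 33 and 31 reads to 5, 6 and 0. Counts of HLA genes are uncertain, since their near-identical copies can share reads. The protease genes CTSS and LGMN, which process peptides, rose by 1.09 and 0.74 on the log2 scale. Of 20 class I genes, 7 were higher (35%) and 4 lower (20%), against 33.9% and 33.8% of all tested genes. Of the 4 lower genes, 2 reached 2-fold (10% of the list, against 11.4% of all tested genes), among them HLA-B with a log2 fold change of -1.67. ERAP1, a peptide-trimming protease, fell by 0.57 and the chaperone CALR rose by 0.44.

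Immune checkpoint ligands were higher in 12 of 17 tested genes (70.6%) and lower in 2 (11.8%), against 33.9% and 33.8% of all tested genes. Their median log2 fold change was 0.68, and 0.49 without shAHR#2 replicate 3. CD274, which encodes PD-L1, rose from 21.4, 21.5 and 21 CPM to 44.1, 41.8 and 43.1 CPM, and PDCD1LG2, which encodes PD-L2, from 1.97, 2.38 and 2.88 CPM to 6.12, 4.55 and 4.7 CPM. CEACAM1, an adhesion molecule that binds TIM-3, went from 11, 12 and 12 reads to 101, 88 and 82, and the OX40 ligand gene TNFSF4 rose by 1.17 on the log2 scale. VSIR (VISTA) fell from 9.41, 10.2 and 10.8 CPM to 6.07, 4.75 and 4.06 CPM.

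**Figure D3:**
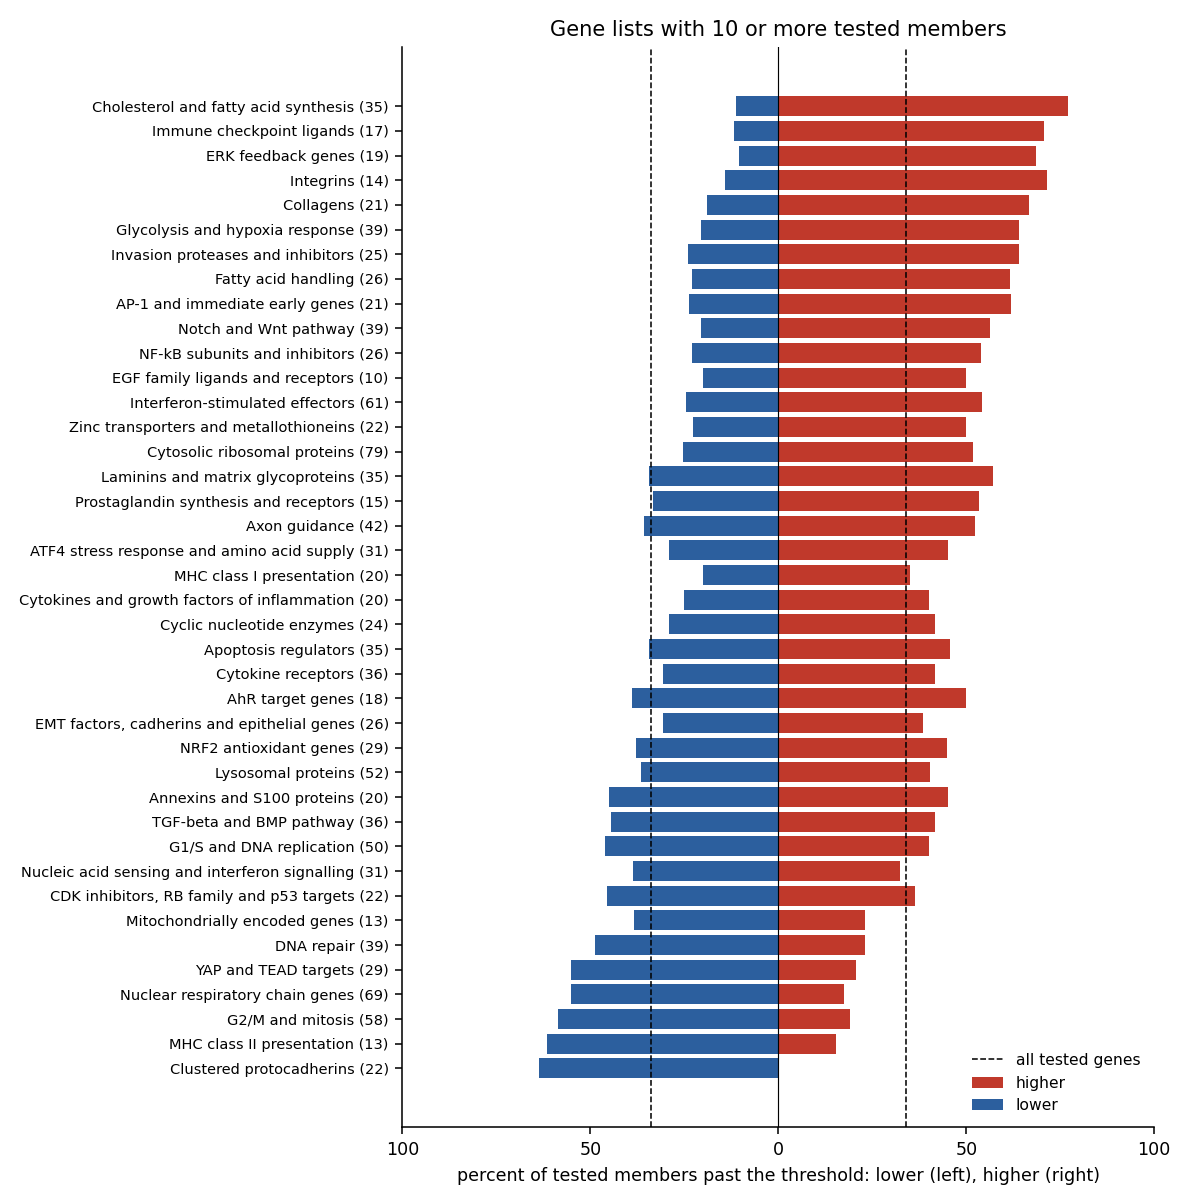
For gene lists with 10 or more tested members, percent of the members that were called higher (red, right) or lower (blue, left), with the number tested in parentheses and dashed lines at the 33.9% and 33.8% of all tested genes. Among these lists, cholesterol and fatty acid synthesis reaches farthest to the right and clustered protocadherins farthest to the left.

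Of 21 tested collagens, 14 were higher (66.7%) and 4 lower (19%), against 33.9% and 33.8% of all tested genes. The median log2 fold change of the collagens was 0.48. COL7A1, the anchoring fibril collagen, rose from 46.8, 44.5 and 49.2 CPM to 118, 119 and 117 CPM, and COL18A1 of basement membranes from 140.2, 138 and 141 CPM to 327, 341 and 317 CPM. COL12A1 and COL8A1 fell by 1.01 and 1.12 on the log2 scale. Of 35 laminins and matrix glycoproteins, 20 were higher (57.1%) and 12 lower (34.3%). By 2-fold or more 6 were higher and 5 lower (31.4% together), against 11.4% of all tested genes. FN1 (fibronectin), which lies outside the naming rule and was singled out for its abundance, rose from 815, 797 and 823 CPM to 2405, 2429 and 2368 CPM. THBS1 moved the other way, from 1923, 1992 and 1939 CPM to 672, 692 and 654 CPM, as did EFEMP1 (fibulin-3), from 149, 153 and 142 CPM to 29, 29.2 and 25.8 CPM. SPOCK1, a secreted proteoglycan, rose by 3.48 on the log2 scale although it lies on chromosome 5, where most genes were lower.

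Integrins, the receptors for this matrix, were higher in 10 of 14 tested genes (71.4%) and lower in 2 (14.3%). Over all tested genes the shares were 33.9% and 33.8%. ITGA2, the collagen-binding alpha 2 chain, rose from 359, 369 and 370.0 CPM to 1119, 1098 and 1103 CPM. ITGA5, the fibronectin-binding chain, rose from 80.7, 80.8 and 86.3 CPM to 241, 244 and 236 CPM, and ITGB4, the laminin-binding beta 4 chain, from 173, 181 and 183 CPM to 427, 438 and 420.3 CPM. No control library reached the lowest shAHR#2 library for any of these, and the groups did not overlap for 69.4% of all tested genes. ITGA1, a second collagen-binding chain, fell by 0.93, and ITGB3 by 0.70 on the log2 scale.

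Of 25 invasion proteases and their inhibitors, 16 were higher (64%) and 6 lower (24%), against 33.9% and 33.8% of all tested genes. By 2-fold or more 8 were higher and 5 lower (52% together), against 11.4% of all tested genes. The plasminogen activator gene PLAT rose from 89.8, 83.8 and 86.4 CPM to 408, 422 and 402 CPM. MMP1, the interstitial collagenase, fell from 8.06, 8.49 and 7.29 CPM to 0.322, 0.706 and 1.02 CPM, and ADAM12 and ADAMTS6 fell by 2.07 and 2.28 on the log2 scale. MMP17 and ADAMTS1 rose by 2.35 and 2.73. TIMP3 went from 753, 748 and 749 CPM to 2288, 2289 and 2282 CPM, so an inhibitor and several proteases rose in the same libraries.

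**Figure D4:**
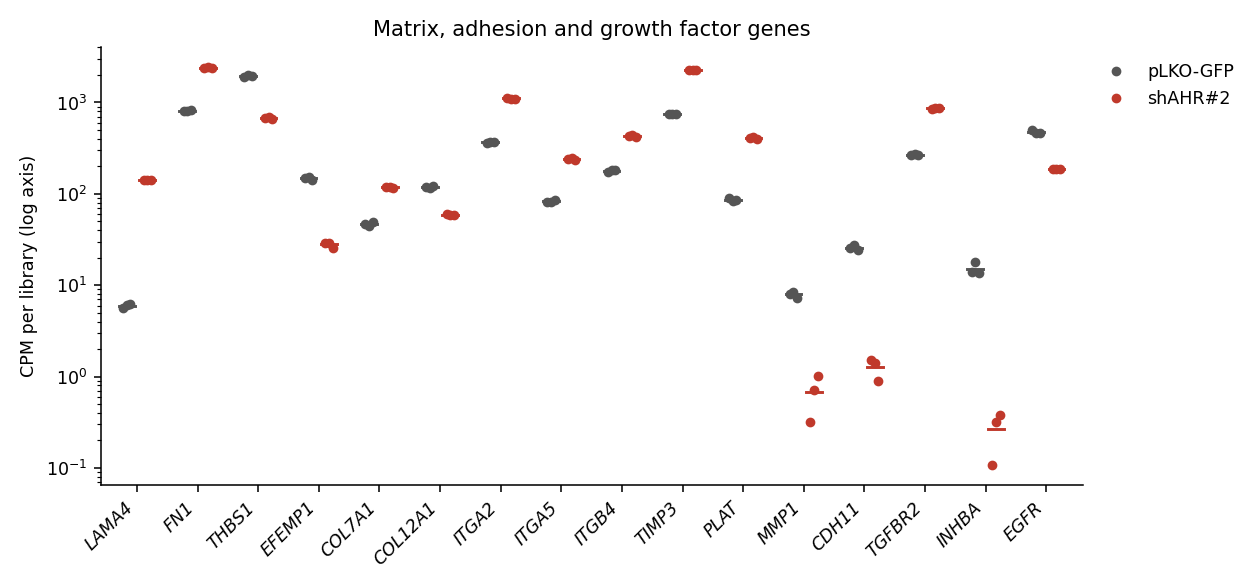
CPM per library (log axis) for matrix, adhesion and growth factor genes, with a point for each of the 3 pLKO-GFP (grey) and 3 shAHR#2 (red) libraries and a line at each mean. LAMA4, FN1, the integrins ITGA2, ITGA5 and ITGB4, TIMP3, PLAT and TGFBR2 lie higher with shAHR#2, and THBS1, EFEMP1, MMP1, CDH11, INHBA and EGFR lower.

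Of 26 genes of epithelial or mesenchymal state, 10 were higher (38.5%) and 8 lower (30.8%), against 33.9% and 33.8% of all tested genes. CDH11, a cadherin of mesenchymal cells, fell from 25.5, 27.5 and 24.2 CPM to 1.5, 1.41 and 0.889 CPM. The tight junction gene CLDN1 rose from 3.27, 4.52 and 3.39 CPM to 20.7, 19.9 and 19.4 CPM, and the hair-type keratin gene KRT81 fell from 205, 221 and 223 CPM to 71.7, 77 and 73.6 CPM. The epithelial splicing factors diverged, with ESRP1 higher by 3.36 and ESRP2 at -1.73 on the log2 scale. Among markers of luminal and epithelial breast cells, 6 of 10 were higher and none lower. AGR2, a disulfide isomerase of secretory epithelia, rose from 10.7, 10.5 and 10.7 CPM to 50.6, 46.9 and 41.9 CPM, and KRT19 from 96.3, 102 and 100.1 CPM to 176, 177 and 159 CPM. FOXA1, a pioneer factor of luminal cells, had no read in the control libraries and 27, 24 and 17 with shAHR#2. The estrogen receptor gene ESR1 had 1, 0 and 1 and 4, 1 and 2 reads and the progesterone receptor gene PGR had none, so these defining luminal genes were at or near 0. The summed level of the luminal markers was 195, 206 and 203 CPM in the control and 325, 324 and 299 CPM with shAHR#2, with KRT19 the most abundant.

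Markers of other cell types were examined because genes such as CD96, LAMA4, ACVRL1 and FABP4 are best known from other tissues. Of the leukocyte markers, CD3E, CD3D, CD2 and MS4A1 had no read in the 6 libraries. Of 5 leukocyte markers tested, 2 were higher and 2 lower (40% each, against 33.9% and 33.8% of all tested genes). The list summed to 5.01, 4.47 and 6.02 CPM in the control and 8.48, 7.18 and 6.35 CPM with shAHR#2. PTPRC (CD45) had 1, 4 and 2 reads in the control and 33, 23 and 14 with shAHR#2, and LYZ (lysozyme) had 8, 10 and 13 and 59, 45 and 46. The monocyte genes CD14 and CSF1R, both on chromosome 5, fell from 17, 17 and 21 reads to 8, 6 and 4 and from 43, 48 and 71 reads to 36, 21 and 25, though CSF1R did not pass the test without pLKO-GFP replicate 3 (edgeR adjusted p = 0.0676). Per kilobase of exons, CD14 was the most abundant of the list in the control and LYZ with shAHR#2.

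Endothelial markers summed to 79.6, 73.3 and 71.1 CPM in the control and 152, 164 and 152 CPM with shAHR#2, of which ESAM made up most. CLDN5 had no read and CDH5 had 0, 0 and 0 and 2, 0 and 0, while PECAM1 rose by 2.23 and KDR fell by 2.74 on the log2 scale. Adipocyte markers summed to 53.7, 52.7 and 53.7 CPM and to 128, 127 and 128 CPM, mostly PPARG, and ADIPOQ and LEP had no read. Fibroblast markers, with DCN at 0, summed to 17.6, 14.5 and 15.9 CPM and to 15.6, 14.2 and 15.9 CPM. Of the 3 fibroblast markers tested, COL1A1 rose by 0.68 on the log2 scale, while PDGFRB fell by 0.82 and THY1 went from 22, 24 and 12 reads to 2, 0 and 0. PDGFRB was the most abundant of these per kilobase in the control and COL1A1 with shAHR#2. Basal markers, with OXTR the most abundant in the control, TP63 with shAHR#2, and KRT5 and CNN1 at 0, summed to 9.3, 9.38 and 10.9 CPM and to 7.57, 6.29 and 5.59 CPM. Whether cells of other types were present, and their part in the result, was not tested.

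Of 10 tested ligands and receptors of the EGF family, 5 were higher (50%) and 2 lower (20%), against 33.9% and 33.8% of all tested genes. EGFR fell from 496, 468 and 461 CPM to 186, 189 and 189 CPM, and its ligand gene AREG (amphiregulin) from 54.3, 56.2 and 58.3 CPM to 29, 30.4 and 32 CPM, while EREG and BTC rose. NRG1, the ligand of ERBB3 and ERBB4, rose by 0.67 on the log2 scale. Feedback genes of the ERK pathway were higher in 13 of 19 cases (68.4%) and lower in 2 (10.5%). DUSP6 among them stood at 224, 239.9 and 233 CPM in the control and 374, 379 and 379 CPM with shAHR#2. The median of this list was 0.24. DUSP10, a phosphatase that acts mainly on JNK and p38, fell by 1.00.

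In the TGF-beta and BMP pathway, 15 of 36 genes were higher (41.7%) and 16 lower (44.4%), against 33.9% and 33.8% of all tested genes. The median of the pathway was 0.00. TGFBR2, the type II TGF-beta receptor, rose from 267, 269.8 and 263 CPM to 859, 865 and 864 CPM. The ligand gene TGFB2 fell from 209, 219.8 and 209.7 CPM to 90.7, 89.1 and 95.1 CPM, and ENG, a co-receptor that works with ACVRL1, fell by 2.04 on the log2 scale while ACVRL1 rose. Targets of YAP and TEAD factors were lower in 16 of 29 cases (55.2%) and higher in 6 (20.7%). By 2-fold or more 7 were lower (24.1%) and none higher, against 11.4% of all tested genes in either direction. FJX1 fell from 34.3, 33.6 and 35.5 CPM to 7.94, 8.47 and 6.98 CPM and ANKRD1 from 561, 548 and 548 CPM to 271, 272 and 275 CPM, whereas WWTR1, which encodes the YAP relative TAZ, rose by 0.72 and NT5E (CD73) by 0.68.

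Among immediate early and AP-1 genes, 13 of 21 were higher (61.9%) and 5 lower (23.8%), against 33.9% and 33.8% of all tested genes. KLF4 rose from 18.8, 19 and 21.6 CPM to 62.1, 68.6 and 59.7 CPM, and FOS and JUND fell by 1.37 and 1.01 on the log2 scale. Notch and Wnt genes were higher in 22 of 39 cases (56.4%) and lower in 8 (20.5%). TCF7L1, NOTCH3 and LGR5 rose by 2.47, 1.79 and 1.58 on the log2 scale, and the Wnt antagonist DKK1 fell from 249.6 to 127 CPM. Axon guidance genes were higher in 22 of 42 cases (52.4%) and lower in 15 (35.7%). SEMA3A, a secreted repellent, rose from 47.5, 47.9 and 43.3 CPM to 235, 228 and 229.6 CPM, and SEMA4B from 43.7, 43.7 and 40.1 CPM to 175, 186 and 186 CPM. SEMA3E, a ligand of plexin D1, fell from 13.4, 12.6 and 11 CPM to 2.31, 2.37 and 1.59 CPM.

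Lipid and glucose genes were mostly higher. Of 35 genes of cholesterol and fatty acid synthesis, 27 were higher (77.1%) and 4 lower (11.4%), against 33.9% and 33.8% of all tested genes. The median log2 fold change of this list was 0.33. The fatty acid synthase gene FASN rose by 0.93 on the log2 scale, and PMVK, the phosphomevalonate kinase, fell by 1.10. Among 26 genes of fatty acid handling, 16 were higher (61.5%) and 6 lower (23.1%). LIPG, endothelial lipase, rose from 12.5, 12 and 12.6 CPM to 61.9, 65.5 and 68.1 CPM and the lipid droplet gene PLIN2 from 69.8, 63.8 and 65.7 CPM to 156, 162 and 159 CPM, while CPT1C fell by 2.87.

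Of 39 genes of glycolysis and the hypoxia response, 25 were higher (64.1%) and 8 lower (20.5%), against 33.9% and 33.8% of all tested genes. By 2-fold or more 7 were higher and 1 lower (20.5% together), against 11.4% of all tested genes. The median of the list was 0.47. NDRG1, a common hypoxia marker, rose from 143, 140.4 and 139 CPM to 464, 469.7 and 460.0 CPM. EGLN3, a hydroxylase that limits HIF, rose from 2.54, 3.67 and 2.78 CPM to 14, 14.6 and 14.1 CPM and the aldolase gene ALDOC from 4.96, 4.57 and 4.86 CPM to 18.4, 16.2 and 18.2 CPM. EPAS1, which encodes HIF-2 alpha, fell by 0.64 on the log2 scale. ARNT, which rose, and ARNT2, which fell, also serve as partners of the HIF proteins. Oxygen in the cultures was not measured in these data.

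Genes of the ATF4 stress response and amino acid supply were higher in 14 of 31 cases (45.2%) and lower in 9 (29%). Over all tested genes the shares were 33.9% and 33.8%. CHAC1 and VLDLR of this list rose by 1.48 and 1.82, and TRIB3 fell by 0.72, on the log2 scale. Of 29 NRF2 antioxidant genes, 13 were higher (44.8%) and 11 lower (37.9%), against 33.9% and 33.8% of all tested genes. By 2-fold or more 13.8% of the list changed, near the 11.4% of all tested genes. The 4 that fell by 2-fold or more included NQO1, EPHX1 (epoxide hydrolase) at 53.1, 48.6 and 51.7 CPM and then 17.2, 15.1 and 15.9 CPM, and OSGIN1, while HMOX1 rose by 0.78. Of 52 lysosomal genes, 21 were higher (40.4%) and 19 lower (36.5%), with NEU1 and GM2A lower by 1.59 and 1.45.

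Of 58 genes of G2/M and mitosis, 34 were lower (58.6%) and 11 higher (19%), against 33.8% and 33.9% of all tested genes. None of the 58 reached 2-fold in edgeR, and the median was -0.13. MKI67, the proliferation marker Ki-67, fell from 1243, 1134 and 1156 CPM to 744, 713 and 747 CPM, and ECT2, a cytokinesis factor, rose by 0.46. Of 50 genes of G1/S and replication, 20 were higher (40%) and 23 lower (46%), against 33.9% and 33.8% of all tested genes. E2F1 stood at 99.8, 95.7 and 99 CPM in the control and 51.2, 53.8 and 53.3 CPM with shAHR#2. CDK6 rose by 0.86 on the log2 scale. Among CDK inhibitors and p53 targets, CDKN1A (p21) rose by 0.81 and BTG1 by 1.07, and DDB2 and ZMAT3 fell by 1.23 and 1.06. DNA repair genes were lower in 19 of 39 cases (48.7%) and higher in 9 (23.1%). PARP1 fell from 279, 270.2 and 268 CPM to 193, 191 and 192 CPM and BRCA1 rose by 0.27 on the log2 scale. Apoptosis regulators were higher in 16 of 35 cases (45.7%) and lower in 12 (34.3%), against 33.9% and 33.8% of all tested genes. BCL2A1, a survival gene of the BCL2 family, had 0, 1 and 0 reads and then 34, 32 and 35, APAF1 rose by 1.05 and BCL2 fell by 0.75.

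Of 69 nuclear genes of the respiratory chain, 38 were lower (55.1%) and 12 higher (17.4%), against 33.8% and 33.9% of all tested genes. The median of the list was -0.13. The 6 members on chromosome 5 were each lower, among them NDUFS4 of complex I at 50.9, 48.1 and 49.1 CPM in the control and 22.5, 20.9 and 22.3 CPM with shAHR#2. Their median was -0.72 against -0.09 for the other 63. Of 79 cytosolic ribosomal proteins, 41 were higher (51.9%) and 20 lower (25.3%). RPL10 rose by 0.58 and RPS24 fell by 0.71 on the log2 scale, and the 3 ribosomal proteins on chromosome 5 were each lower. Counts of ribosomal protein genes can be split with their pseudogenes. The mitochondrial genome gave 8.63%, 7.33% and 8.82% of the counts in the control libraries and 8.48%, 8.41% and 8.93% with shAHR#2.

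Changes were uneven along the genome. Chromosome 5 had the lowest median log2 fold change, -0.47 over 637 tested genes, with 73.0% of them called lower and 7.54% higher. Relative to the control mean, its median gene stood at -0.45, -0.46 and -0.44 on the log2 scale in shAHR#2 replicates 1, 2 and 3, and within 0.004 of 0 in each control library. Its genes took 4.82%, 4.91% and 4.80% of the counts of tested genes in the control and 3.55%, 3.53% and 3.54% with shAHR#2. In windows of 20 Mb the median was negative along the whole chromosome, from -0.72 at 20 to 40 Mb up to -0.37 at 100 to 120 Mb.

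Other chromosomes with low medians were 4 (-0.32), 10 (-0.32), 20 (-0.31) and X (-0.25), and the highest medians were on 12 and 14 (0.23 each). Elsewhere in the genome, windows with 20 or more tested genes ranged from -0.54, on chromosome 7 from 40 to 60 Mb (54 genes), to 0.39, on chromosome 8 from 120 to 140 Mb (48 genes). Single genes went against their chromosome. On chromosome 5, ITGA2 rose by 1.60, the transcription factor gene HAND1 by 3.46 and KLHL3 by 2.53. On chromosome 14, NKX2-1, a transcription factor of lung and thyroid, went from 39, 61 and 49 reads to none, at least 43-fold lower. On chromosome 12 the limb and mammary factor gene TBX3 fell by 2.91. The number of DNA copies was not measured, and its part in these values was not tested.

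**Figure D5:**
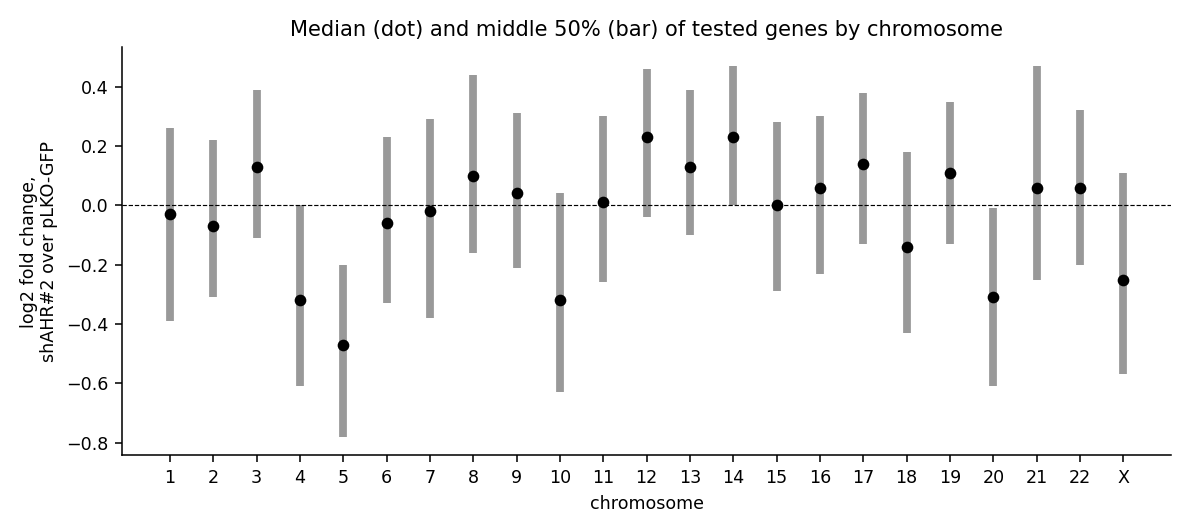
Median log2 fold change of tested genes by chromosome (dots) with the range of the middle 50% of genes (bars), shAHR#2 over pLKO-GFP. Chromosome 5 lies lowest with a median of -0.47, followed by 4, 10, 20 and X, and 12 and 14 lie highest at 0.23.

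The clustered protocadherins, neuronal-type adhesion genes in an array on chromosome 5, were lower in 14 of 22 tested cases (63.6%) and higher in none. Among all tested genes of chromosome 5, a larger share, 73%, was called lower. The median of the protocadherins was -1.23, lower than the chromosome's own -0.47. PCDHB14 fell from 14.7, 12.7 and 13 CPM to 2.15, 1.09 and 3.11 CPM and PCDHB12 from 3.38, 3.03 and 2.73 CPM to 0.59, 0.513 and 0.635 CPM. Reads of these close copies may have been split or lost by the counting. A further 27 of the 49 members were too low to be tested.

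By gene class, 71.3% of 12193 tested protein-coding genes and 44.2% of 1200 long noncoding RNAs were called, but 2-fold changes were more frequent among the noncoding RNAs (20.6% against 10.4%). Median changes differed little with base composition, from -0.02 in the 20% of protein-coding genes with the lowest GC content (29.2% to 40.3%) to 0.07 in the 20% with the highest (57.7% to 73.9%). By exonic length the medians ran from -0.02 to 0.03. In the 20% of genes with the highest mean level, from 86.4 CPM upward, 84.7% were called and 3.75% reached 2-fold, against 42.1% and 28.7% in the lowest 20%, up to 3.14 CPM.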

How the data were processed

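RNA of 6 libraries was analysed. The values are gene counts deposited by the authors, without normalization, from single-end reads of stranded mRNA libraries that STAR had placed on GRCh38.p13. The submitters' processing notes also name FastQC, Subread and featureCounts. Versions, annotation release, strand setting and treatment of multi-mapping reads are not given in the sources used here, so overlapping, antisense and near-identical genes are uncertain.

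Genes were kept by filterByExpr (minimum count 10, total 15), scaled by TMM and tested with edgeR 4.0.16 (glmQLFit, glmQLFTest; R 4.3.3) over 3 against 3 libraries, with Benjamini-Hochberg adjustment over 13861 genes and a threshold of 0.05. The size threshold was 2-fold. The study used DESeq2; DESeq2 1.42.0 was an alternative. Standard errors were derived from each log2 fold change and F. Between replicates, chi-square over its degrees of freedom was 1.76 to 4.22, more than sampling noise. The fit was tested on simulated data: edgeR recovered 174 of 200 changed genes among 13861, with 5 false calls, and DESeq2 164 with 0. The simulation gave all genes a common dispersion and changed far fewer genes than the 9378 called here. It therefore does not measure the error rate of these calls. Positions and exonic lengths are from GENCODE release 44 (60507 of 60649 identifiers found), and promoters from RefSeq.

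Genes were named by a rule: marker genes and genes the study names; the 12 largest rises and falls among protein-coding genes averaging 5 CPM; the 6 most abundant that rose or fell by 2-fold; and up to 3 rises and 3 falls per list or chromosome described, among called genes averaging 1 CPM. Chromosomes 4, 5, 10, 12, 14, 20 and X were chosen after their values were seen. FN1, CIITA, IL6, KRT19, CD14 and untested genes were added by hand. The members and lists were chosen with earlier results of these data known. Alternatives were other tests, scalings, filters, thresholds, all 9 libraries, a replicate block, and leaving out each library.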

Additional observations from a re-analysis of the deposited data

How the results depend on the processing

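The number of genes called ranged from 8356 to 9519 with DESeq2 (8465), DESeq2 scaling inside edgeR, low genes kept, a mean of 50 counts required, all 9 libraries fitted or the replicate number as a block, and was 8233 at an adjusted p under 0.01. A test against a 1.5-fold change called 2109. The 1575 genes called at 2-fold or more became 810 with a mean of at least 50 counts, since fewer genes were tested, 1509 with DESeq2 and 1988 with low genes kept. Leaving out 1 library gave 8908 to 9056 and 1614 to 1674 genes, and AHR between -1.52 and -1.47. With the replicate block 9406 and 1575 genes were called; same-numbered libraries deviated together weakly (r = 0.017, 0.0582 and 0.00245), and not every library was closest to its own number. Of 321 named genes, 319 were called in edgeR and 311 with DESeq2, and 12 lost their call under DESeq2 or without 1 library, among them SPARC with DESeq2 and CSF1R without pLKO-GFP replicate 3; 76 had no value at a mean of 50 counts. The ISG15 log2 fold change, not called, was -0.01, and was 0.082 without pLKO-GFP replicate 2, -0.079 without replicate 3 and 0.014 without shAHR#2 replicate 1. Without 1 library, 6 to 10 of 23 chromosome medians and 3 to 14 of 50 list medians moved by more than their spread between libraries; the median of immune checkpoint ligands became 0.49 without shAHR#2 replicate 3 and that of clustered protocadherins -0.87 without pLKO-GFP replicate 3. The median of chromosome 5 lay between -0.48 and -0.45. Without chromosome 5 genes, a setting chosen after seeing the data, 8865 and 1460 genes were called. Scaling by DESeq2 size factors shifted the median of all genes by 0.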

Other observations

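Counts for smaller gene families stand against 33.9% higher and 33.8% lower over all tested genes. Of 22 tested zinc transporters and metallothioneins, 11 were higher (50%) and 5 lower (22.7%), and the metal-binding gene MT1X rose from 10.8, 9.53 and 10 CPM to 22.4, 21.7 and 22.5 CPM. Of 20 annexins and S100 genes, 9 were higher and 9 lower (45% each), with S100A16 up from 119.7, 122 and 127 CPM to 271, 284 and 276 CPM and ANXA3 down from 162, 164 and 157 CPM to 114, 106 and 109 CPM. Among 15 genes of prostaglandin synthesis and response, 8 were higher (53.3%) and 5 lower (33.3%), and the synthase genes PTGS2 and PTGS1 moved apart, at 1.11 and -0.90 on the log2 scale. Cyclic nucleotide enzymes were higher in 10 of 24 cases (41.7%) and lower in 7 (29.2%), and PDE2A rose from 2.76, 3.13 and 3.14 CPM to 11.1, 10.6 and 9.58 CPM while ADCY9 fell from 55.8, 55.8 and 56.1 CPM to 23.8, 26 and 24.2 CPM.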
